A study of Mus musculus with 10 samples.

Results

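Gene expression in whole mouse kidney was compared between animals with either risk allele of human APOL1 and animals labelled wild type (single mutant). The 4 libraries with a risk allele, 2 labelled G1-APOL1 and 2 labelled G2-APOL1, were pooled into 1 group and set against the 3 libraries labelled wild type (single mutant), called wild type from here on. Genes rose or fell, and count as called, where edgeR's quasi-likelihood test over all genes tested gave an adjusted p (Benjamini-Hochberg) under 0.05. The genes described here are the called genes in which each of the 4 libraries with a risk allele lay above the highest, or below the lowest, wild type library in CPM (counts scaled to a common library size, with factors from the trimmed mean of M-values, TMM). They numbered 4966 of the 46517 genes counted and of the 17009 genes with enough reads to be tested, 2789 higher and 2177 lower. The 3 libraries labelled Control stayed out of the test, and their values are given only as a description.

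The series title places the expression of the APOL1 variants in podocytes. The sources used here do not give the promoter that drives the transgene, any inducing agent, the strain, the sex, the age or the meaning of the words single mutant. Whether every library is a different mouse is not stated, so p-values here measure only how these libraries vary, which may be technical. Expression of human APOL1 itself was not analysed here, and the labels of genotype were therefore not checked against it.

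The product of human APOL1, an apolipoprotein, circulates with plasma lipoproteins and lyses trypanosomes. People who carry its G1 or G2 alleles on both chromosomes are known to have a higher risk of kidney disease. Podocytes wrap the glomerular capillaries and hold the slit diaphragm, the last layer of the filter. Tubule cells make up most of the kidney cortex, and injured tubule cells are known to lose their transporters and to switch on secreted and surface markers such as Lcn2 and Havcr1. In bulk kidney, fewer cells of a type and less RNA per cell cannot be told apart.

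The 7 libraries held 29126336 to 34815153 counts each. All 40 podocyte genes and all 32 genes of the early proximal tubule that were listed for this work had enough reads to be tested. G1 replicate 2 stood apart in sex-linked transcripts: Xist, the RNA of the inactive X chromosome, was at 1.16, 371, 0.201 and 0.4895 CPM in G1 replicates 1 and 2 and G2 replicates 1 and 2 and at 0.339 to 0.459 CPM in wild type, while the Y-linked Ddx3y was at 42.4, 0.208, 37.3 and 43.8 against 49.8 to 53.3 CPM. Wild type replicate 1 stood apart in liver-type transcripts, as described further on. The titles of the 3 wild type libraries carry 3 different letter stems, whose meaning the labels do not give. Each main count that leads a paragraph is therefore also given with G1 replicate 2 and wild type replicate 1 both left out, an alternative chosen after the data were seen that sets 3 libraries against 2. These 2 libraries are called the doubted libraries below. Of the 182 called genes examined one by one, 88 lost the call in that alternative, as given for those named.

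Of the 17009 genes tested, 2830 rose (16.6%) and 2233 fell (13.1%), 29.8% in either direction. All but 41 of the rises and 56 of the falls lay beyond the whole wild type range in all 4 libraries (16.4% of the genes tested higher, 12.8% lower). Whether called or not, 22.1% of the genes tested lay above that range in all 4 libraries and 18.9% below it. Scaling mattered for the split: TMM factors were 1.02 to 1.14 in the libraries with a risk allele and 0.854 to 0.920 in wild type, and without them, on library totals alone, the median log2 fold change of all genes tested moved from 0.02 to 0.31 and the calls became 5082 higher and 978 lower. Directions below are relative to the TMM scale. The calls fell to 1592 higher and 1089 lower without wild type replicate 1, to 1513 and 1062 without wild type replicate 2 and to 2006 and 1344 without G1 replicate 2. With both G1 replicate 2 and wild type replicate 1 left out they were 373 higher and 182 lower of 17217 genes tested. List counts given below with both left out stand beside these numbers, not beside 16.6% and 13.1%.

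Rises and falls differed in size and in the level they started from. The median log2 fold change was 1.38 among the higher genes and 0.76, as an absolute value, among the lower genes. More than 2-fold in every one of the 4 libraries were 844 higher and 250 lower genes, and more than 4-fold were 117 and 26. The higher genes started low, at a median of 5.14 CPM in wild type, and the lower genes high, at 67.4 CPM: 5.34% of the higher and 36.8% of the lower genes averaged 100 CPM or more in wild type, against 12.4% of all genes tested. Summed over their members, the higher genes took 6.24% to 6.73% of the wild type libraries and 11.4% to 18.2% of the libraries with a risk allele. The lower genes took 33.6% to 37.9% of the wild type libraries and 15.8% to 20.7% of the others. The sums follow from how the genes were chosen. The sizes and wild type levels depend on that choice too, since wild type was part of the comparison and a gene could pass the filter through either group. All are given as a description.

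The 4 libraries with a risk allele did not change by equal amounts. A library's change is its log2 ratio of CPM plus 0.5 to the mean of the 3 wild type libraries. Among the higher genes, the median change was 1.10 and 1.18 in G1 replicates 1 and 2 and 0.96 and 0.85 in G2 replicates 1 and 2. Among the lower genes it was -0.75 and -0.87 in G1 and -0.65 and -0.63 in G2. G2 replicate 2 held the weakest of the 4 changes in 55.6% of the higher and 40.7% of the lower genes, and G1 replicate 2 the strongest in 43.3% and 54.0%. The 4 changes lay within 0.5 of each other on the log2 scale for 34.0% of the higher and 59.0% of the lower genes.

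**Figure D1:**
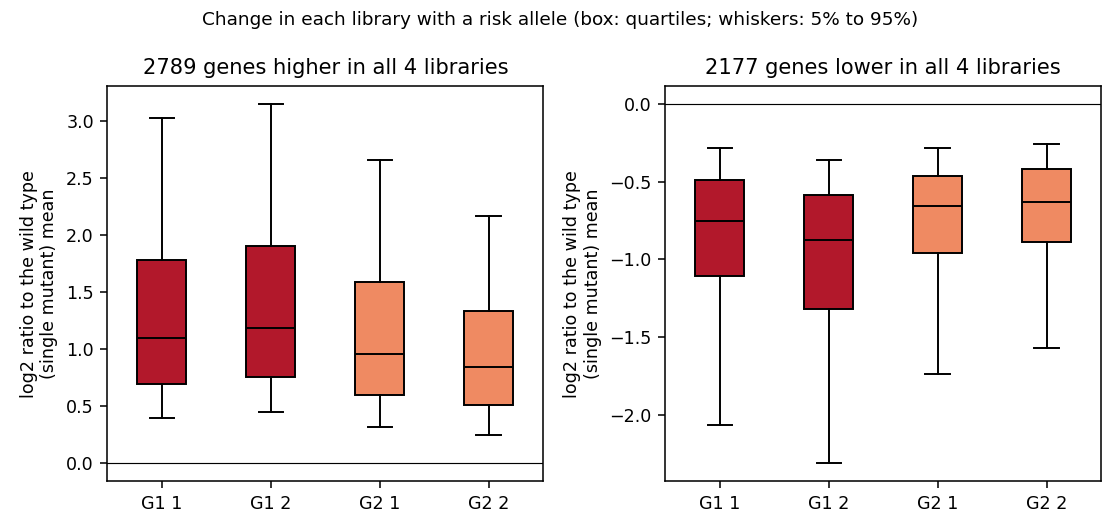
Box plots of the log2 ratio to the wild type (single mutant) mean, on the vertical axis, in each of the 4 libraries with a risk allele, for the 2789 genes higher (left) and the 2177 genes lower (right) in all 4. Boxes span the quartiles with the median as a line and whiskers reach from 5% to 95% of the genes; the medians are 1.10, 1.18, 0.96 and 0.85 on the left and -0.75, -0.87, -0.65 and -0.63 on the right.

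Among the genes whose weakest library rose most were markers of tubular injury, and Lcn2, which encodes an iron-siderophore binding protein that injured tubules secrete, led them. Lcn2 (GRCm38 chromosome 2, 32384633 to 32388252, minus strand) was at 223 and 363 CPM in the G1 libraries, 123 and 207 in the G2 libraries and 2.89, 3.43 and 4.76 in wild type. Even the lowest library with a risk allele held far more than any wild type library (log2 fold change 5.95, SE 0.45, edgeR adjusted p = 0.00118). Timp1, an inhibitor of matrix metalloproteinases, was at 41.4 and 41.99 CPM in the G1 libraries, 50.99 and 28.6 in the G2 libraries and 0.388, 0.678 and 0.741 in wild type (log2 fold change 6.07, SE 0.31, edgeR adjusted p = 0.000634). Its groups were wide apart and its 2 alleles overlapped. Havcr1, which encodes the phosphatidylserine receptor KIM-1 of injured proximal tubules, was at 391 and 276 CPM in the G1 libraries, 158 and 57.2 in the G2 libraries and 5.58, 3.43 and 2.58 in wild type (log2 fold change 5.84, SE 0.75, edgeR adjusted p = 0.00281). Its 4 libraries were far above wild type but spread over a wide range, with G2 replicate 2 the lowest. Cd44, a hyaluronan receptor, ranged over 34.1 to 158 against 2.08 to 3.5997 CPM, with a log2 fold change of 5.32 (SE 0.64, adjusted p = 0.00241). Vcam1, an adhesion molecule for leukocytes, ranged over 153 to 662 against 6.33 to 15.2 CPM (log2 5.08, SE 0.64, adjusted p = 0.00272). Runx1, a transcription factor, ranged over 13.9 to 22.5 against 1.24 to 2.26 CPM (log2 3.49, SE 0.30, adjusted p = 0.00145).

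The same group of strongest rises held genes of other roles. Aoc1, which encodes diamine oxidase, was at 332 and 335 CPM in the G1 libraries, 220.1 and 127 in the G2 libraries and 6.57, 7.42 and 9.46 in wild type (log2 fold change 5.02, SE 0.41, edgeR adjusted p = 0.00122). Ubd, which encodes the ubiquitin-like modifier FAT10, was at 83.1 and 59.96 CPM in the G1 libraries, 50.9 and 22.5 in the G2 libraries and 1.66, 0.226 and 1.52 in wild type, and Control held 2.38, 4.58 and 0.3296 CPM (log2 fold change 5.56, SE 0.71, edgeR adjusted p = 0.00276). No library with a risk allele came near the reference libraries for either gene. Serpina10, an inhibitor of coagulation proteases, ranged over 37.02 to 79.8 against 1.77 to 2.598 CPM with a log2 fold change of 4.83 (SE 0.33, adjusted p = 0.00111). Meltf, which encodes melanotransferrin, ranged over 8.09 to 13.9 against 0.226 to 0.318 CPM (log2 5.19, SE 0.31, adjusted p = 0.000995). Aldh1a2, a retinoic acid synthesising enzyme, ranged over 33.8 to 51.5 against 1.51 to 4.55 CPM (log2 3.93, SE 0.40, adjusted p = 0.00195). Cd14, a coreceptor for lipopolysaccharide, was at 165, 80.9, 71.04 and 74.3 CPM in the 4 libraries against 3.78 to 8.82 in wild type (log2 4.01, SE 0.45, adjusted p = 0.00219), with G1 replicate 1 the highest.

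**Figure D2:**
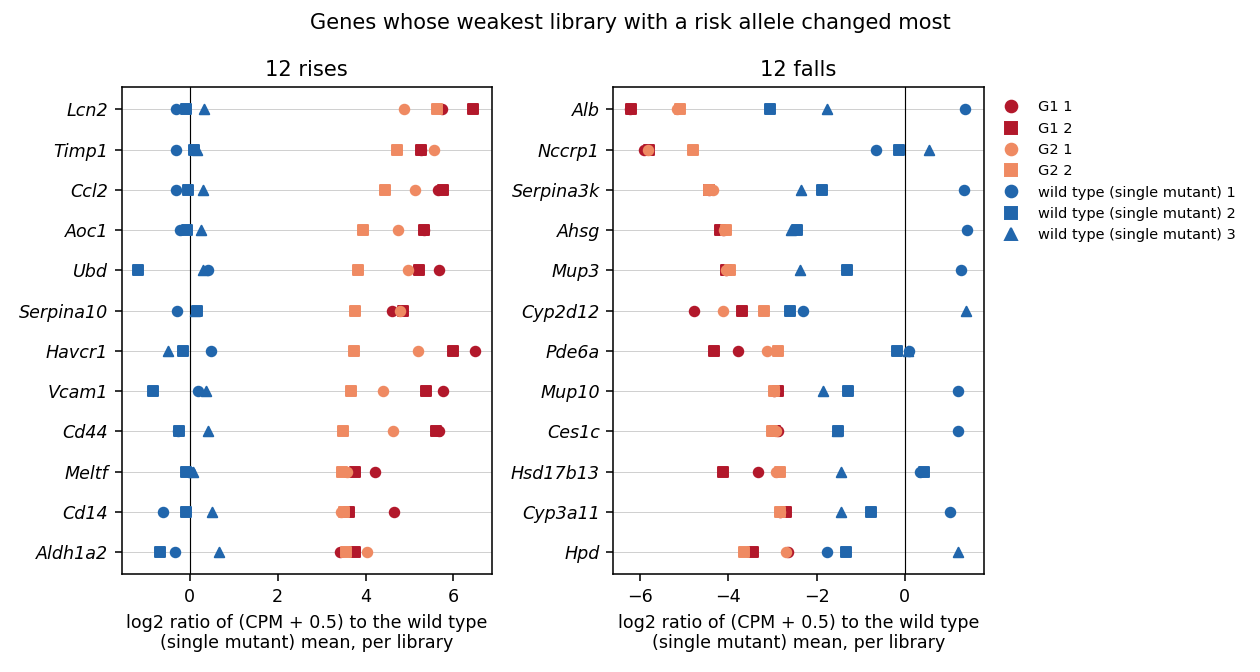
Log2 ratio of CPM plus 0.5 to the wild type (single mutant) mean, on the horizontal axis, for the 12 rises (left) and 12 falls (right) whose weakest library with a risk allele changed most; each point is 1 of the 7 libraries, coloured by genotype and shaped by replicate. All points of the G1 and G2 libraries lie beyond all wild type points, and among the falls wild type replicate 1 lies far above the other wild type libraries for several liver-type genes.

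Of 44 tubular injury genes, 36 rose and 0 fell, with a median log2 fold change of 2.60 beside 0.02 for all genes tested. The count was 19 with both doubted libraries left out. The list was written with the results of these libraries known, so its direction is no independent evidence. Of 12 keratin genes, which encode intermediate filaments of epithelia, 5 rose: Krt7 ranged over 229 to 312 against 106 to 151 CPM (log2 1.10, SE 0.16, adjusted p = 0.00423). Krt8 ranged over 235 to 443 against 108 to 134 CPM (log2 1.55, SE 0.26, adjusted p = 0.00602). Krt18 ranged over 83.3 to 178 against 17.01 to 33.97 CPM (log2 2.44, SE 0.32, adjusted p = 0.00309). Krt19 ranged over 26.6 to 45.1 against 5.05 to 8.54 CPM (log2 2.397, SE 0.25, adjusted p = 0.00195). The fifth, Krt20, was at 179 and 169.6 CPM in the G1 libraries, 16.6 and 13.99 in the G2 libraries and 2.89, 0.941 and 0.59996 in wild type (log2 fold change 5.996, SE 1.29, edgeR adjusted p = 0.0129). All 4 libraries were above wild type, with both G1 libraries far above both G2 libraries. Krt20 lost its call without wild type replicate 2 (adjusted p = 0.0613), and with limma-voom (adjusted p = 0.0984). With both doubted libraries left out, 2 of the 12 keratin genes were called. Krt7, Krt8 and Krt20 lost the call with both doubted libraries left out (adjusted p = 0.0577 to 0.0751).

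Signals of leukocyte recruitment rose in number. Of 30 chemokine genes, which encode secreted attractants of leukocytes, 19 rose and 1 fell (median log2 2.52), 11 of them still called higher with both doubted libraries left out. Ccl2, the main attractant of monocytes, was at 52.8 and 57.1 CPM in the G1 libraries, 36.4 and 22.7 in the G2 libraries and 0.353, 0.527 and 0.812 in wild type (log2 fold change 6.22, SE 0.47, edgeR adjusted p = 0.00118). Its groups were far apart, with the G2 libraries below the G1 libraries. Ccl7 ranged over 2.94 to 6.18 against 0.0753 to 0.141 CPM (log2 5.30, SE 0.42, adjusted p = 0.00118). Ccl12 ranged over 2.62 to 4.67 against 0.212 to 0.527 CPM (log2 3.55, SE 0.42, adjusted p = 0.00241). Ccl17 ranged over 2.47 to 7.89 against 0.141 to 0.377 CPM (log2 4.32, SE 0.55, adjusted p = 0.00272); Ccl7 and Ccl12 act on monocytes and Ccl17 on T cells. The neutrophil attractant Cxcl1 was at 89.3 and 103 CPM in the G1 libraries, 13.6 and 6.905 in the G2 libraries and 1.13, 1.62 and 0.423 in wild type (log2 fold change 5.66, SE 1.19, edgeR adjusted p = 0.0119). Another neutrophil attractant, Cxcl2, was at 8.85 and 14.5 CPM in the G1 libraries, 5.57 and 2.89 in the G2 libraries and 0.212, 0.113 and 0.0353 in wild type (log2 fold change 6.01, SE 0.79, edgeR adjusted p = 0.00301). Cxcl1 lost its call without wild type replicate 1 (adjusted p = 0.0526), and with limma-voom (adjusted p = 0.111). The 1 chemokine that fell, Ccl28, a mucosal attractant, was not beyond the wild type range: it was at 7.56, 7.89, 22.96 and 13.04 CPM against 79.3, 208 and 14.6 (log2 -2.97, SE 0.80, adjusted p = 0.0275), and it lost the call without G1 replicate 1 or 2, G2 replicate 2 or wild type replicate 1 or 2 (adjusted p = 0.0503 to 0.114) and with limma-voom (adjusted p = 0.0883). Cxcl1 and Ccl28 lost the call with both doubted libraries left out (adjusted p = 0.0936 to 0.139).

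NF-kB is a family of transcription factors that inflammatory signals release from inhibitors in the cytoplasm, and it switches on chemokines as well as its own subunits and inhibitors. Of 25 genes of NF-kB subunits and feedback inhibitors, 18 rose and 1 fell (median log2 1.29), and 3 were called higher with both doubted libraries left out. The subunit Relb was at 59.04 and 56.8 CPM in the G1 libraries, 38.2 and 25.3 in the G2 libraries and 6.21, 5.54 and 7.38 in wild type (log2 fold change 2.81, SE 0.32, edgeR adjusted p = 0.00221). The subunit Nfkb2 ranged over 48.2 to 103 against 17.9 to 22.5 CPM with a log2 fold change of 2.03 (SE 0.28, adjusted p = 0.00339). Among the genes of nuclear proteins related to the NF-kB inhibitors, Bcl3 ranged over 31.6 to 52.02 against 6.88 to 8.32 CPM (log2 2.61, SE 0.20, adjusted p = 0.00118). Nfkbiz ranged over 21.6 to 41.5 against 5.76 to 7.52 CPM (log2 2.32, SE 0.26, adjusted p = 0.00219). The cytoplasmic inhibitor Nfkbia was at 121, 124, 66.7 and 77.9 CPM against 40.5, 34.2 and 27.1 in wild type (log2 1.52, SE 0.26, adjusted p = 0.00637), and 35.4 to 63.3 CPM in Control, below every library with a risk allele. The kinase gene Chuk, which releases NF-kB, fell: it was at 127, 92.2, 124 and 139.7 CPM against 239, 274 and 139.97 (log2 -0.85, SE 0.24, adjusted p = 0.0327), with its highest library just under the lowest wild type library, and it lost the call without G1 replicate 1 or 2, G2 replicate 1 or wild type replicate 1 or 2 (adjusted p = 0.0583 to 0.124) and on library totals alone (adjusted p = 0.0862). Nfkb2, Nfkbia and Chuk lost the call with both doubted libraries left out (adjusted p = 0.051 to 0.209).

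The promoters of 4 of these inflammatory genes are shown because each holds a match to the kB motif, the sequence NF-kB dimers bind. The windows run from 250 bases before to 50 after the gene's start in RefSeq (GRCm38.p6), 5′ to 3′ on the gene's strand, with the match on either strand in capitals; the Cxcl1 and Cxcl2 capitals hold 2 overlapping matches. Cxcl1 and Cxcl2 lie on chromosome 5 plus strand at chr5:90890995-90891294 and chr5:90903649-90903948, Ubd on the plus strand at chr17:37193642-37193941, and Nfkbia on the minus strand at chr12:55492598-55492897.
Cxcl1: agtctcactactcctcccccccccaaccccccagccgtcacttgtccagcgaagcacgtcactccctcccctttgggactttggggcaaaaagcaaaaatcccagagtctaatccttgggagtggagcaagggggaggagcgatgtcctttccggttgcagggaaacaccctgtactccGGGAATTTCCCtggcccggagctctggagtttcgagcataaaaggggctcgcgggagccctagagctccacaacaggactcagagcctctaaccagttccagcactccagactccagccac
Cxcl2: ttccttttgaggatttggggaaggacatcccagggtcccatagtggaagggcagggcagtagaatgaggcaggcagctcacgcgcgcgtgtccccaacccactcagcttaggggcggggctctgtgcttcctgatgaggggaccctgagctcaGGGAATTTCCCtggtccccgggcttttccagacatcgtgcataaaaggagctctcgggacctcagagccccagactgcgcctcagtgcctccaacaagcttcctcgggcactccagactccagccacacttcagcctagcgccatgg
Ubd: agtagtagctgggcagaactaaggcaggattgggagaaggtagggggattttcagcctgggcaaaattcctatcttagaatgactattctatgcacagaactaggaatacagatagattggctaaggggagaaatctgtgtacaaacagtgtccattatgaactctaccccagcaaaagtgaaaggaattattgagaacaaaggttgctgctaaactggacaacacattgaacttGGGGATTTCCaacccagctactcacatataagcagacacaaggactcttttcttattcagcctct
Nfkbia: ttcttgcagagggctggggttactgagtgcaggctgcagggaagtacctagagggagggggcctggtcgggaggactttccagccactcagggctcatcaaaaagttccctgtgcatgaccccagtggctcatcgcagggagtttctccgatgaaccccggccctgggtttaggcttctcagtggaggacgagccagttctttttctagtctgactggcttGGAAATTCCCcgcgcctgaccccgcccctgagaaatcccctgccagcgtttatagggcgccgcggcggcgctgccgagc

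The kB matches begin 71 bases before the start in Cxcl1, 97 in Cxcl2, 15 in Ubd and 29 in Nfkbia. Of 27025 mouse genes with such a window, 2581 (9.55%) hold a match. A window was found for 3768 of the 4966 genes (75.9%), too few to give a share over them. A match is a description of the sequence and was not tested as a binding site.

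Inflammasomes are cytosolic complexes that activate caspase-1 and mature interleukin-1 beta. Of 25 genes of inflammasomes, pyroptosis and necroptosis, 17 rose and 3 fell (median log2 1.73), and 5 rose and 0 fell with both doubted libraries left out. The sensor gene Nlrp3 was at 2.56 and 3.48 CPM in the G1 libraries, 2.35 and 1.83 in the G2 libraries and 0.353, 0.527 and 0.529 in wild type (log2 fold change 2.43, SE 0.33, edgeR adjusted p = 0.00326). Casp1, the protease, ranged over 2.499 to 3.72 against 0.565 to 1.87 CPM (log2 1.34, SE 0.40, adjusted p = 0.0397). Il1b, the cytokine, ranged over 0.8095 to 4.29 against 0.141 to 0.741 CPM (log2 2.31, SE 0.74, adjusted p = 0.0492). Both had narrow gaps between the groups. Casp1 lost its call without G1 replicate 1 or 2, G2 replicate 1 or wild type replicate 1 or 2 (adjusted p = 0.071 to 0.121), and Il1b without G1 replicate 2, G2 replicate 1 or 2 or wild type replicate 1 or 2 (adjusted p = 0.0522 to 0.15) and with limma-voom (adjusted p = 0.0585). The gene of the secreted interleukin-1 receptor antagonist, Il1rn, was at 24.3 and 27.6 CPM in the G1 libraries, 13.6 and 5.98 in the G2 libraries and 0.177, 0.226 and 0.141 in wild type (log2 fold change 6.60, SE 0.69, edgeR adjusted p = 0.00199). Casp12, an endoplasmic reticulum caspase, ranged over 8.45 to 13.2 against 1.59 to 2.19 CPM (log2 2.51, SE 0.25, adjusted p = 0.00195). The channel gene Panx1 ranged over 6.52 to 12.5 against 1.2002 to 1.76 CPM (log2 2.75, SE 0.30, adjusted p = 0.00206). Zbp1, a sensor of Z-form nucleic acid, ranged over 4.12 to 6.28 against 1.09 to 1.1999 CPM (log2 2.24, SE 0.23, adjusted p = 0.00195). Nlrp3, Casp1 and Il1b lost the call with both doubted libraries left out (adjusted p = 0.0501 to 0.209).

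Macrophage and dendritic cell markers had the largest share of rises of the immune cell lists: 31 of 34 rose and 0 fell (median log2 3.02), 21 with both doubted libraries left out. Their summed level was 1107 to 1744 CPM with a risk allele against 216 to 276 in wild type. Such sums overlapped for some other lists in which most genes rose. They were 709 to 890 against 410 to 774 CPM for chemokines and 935 to 1086 against 783 to 942 for the inflammasome list. For matrix proteases and inhibitors they were 2502 to 3949 against 3030 to 3176, and for the cell cycle 533 to 1166 against 440 to 537. Lyz2, which encodes lysozyme of myeloid cells, was at 278 and 471 CPM in the G1 libraries, 455 and 305 in the G2 libraries and 26.8, 21.2 and 35.3 in wild type (log2 fold change 3.76, SE 0.29, edgeR adjusted p = 0.00118). The groups were far apart and the 2 alleles overlapped. Cd68, a lysosomal protein of macrophages, ranged over 19.3 to 40.9 against 2.97 to 3.81 CPM (log2 3.14, SE 0.28, adjusted p = 0.00158). The scavenger receptor gene Msr1 ranged over 5.46 to 9.19 against 0.6001 to 0.791 CPM (log2 3.37, SE 0.27, adjusted p = 0.00118). Fcer1g, the signalling chain of Fc receptors, ranged over 23.3 to 40.9 against 3.71 to 4.06 CPM (log2 2.97, SE 0.22, adjusted p = 0.00118). Csf1, the growth factor of macrophages, ranged over 41.02 to 106 against 8.59 to 11.5 CPM (log2 2.81, SE 0.34, adjusted p = 0.0025).

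Of 24 antigen presentation genes 19 rose and 0 fell, and 2 were called higher with both doubted libraries left out. The invariant chain gene Cd74 was at 1414 and 1535 CPM in the G1 libraries, 1886 and 954 in the G2 libraries and 197, 155 and 324 in wild type (log2 fold change 2.68, SE 0.34, edgeR adjusted p = 0.00278). The class II chain H2-Aa ranged over 338 to 802 against 51.7 to 94.9 CPM (log2 2.87, SE 0.35, adjusted p = 0.0025). H2-DMb1, which helps to load peptides, ranged over 31.6 to 48.9 against 5.79 to 11.8 CPM (log2 2.17, SE 0.27, adjusted p = 0.00257). Outside the test, Cd74 was at 326, 1970.4 and 187 CPM in Control replicates 1, 2 and 3, so that Control replicate 2 was above every library with a risk allele. The summed level of the antigen presentation list was 4940 to 9331 CPM with a risk allele, 2415 to 2904 in wild type and 2702 to 7747 in Control. Of 46 interferon response genes 34 rose and 0 fell (median log2 1.33), 5 with both doubted libraries left out. Their summed level was 983 to 1658 CPM with a risk allele, 474 to 629 in wild type and 528 to 1416 in Control. For both lists the highest Control library thus lay within the range of the libraries with a risk allele. The transcription factors Irf8 and Irf1 ranged over 28.5 to 44.3 against 12.6 to 13.03 CPM (log2 1.59, SE 0.16, adjusted p = 0.00195) and 42.1 to 61.1 against 12.2 to 20.4 (log2 1.70, SE 0.21, adjusted p = 0.00261). Ifitm3, which hinders virus entry, was at 78.3, 99.05, 97.1 and 101 CPM against 32.3, 31.5 and 42.8 (log2 1.40, SE 0.15, adjusted p = 0.00206). Cd74 lost the call with both doubted libraries left out (adjusted p = 0.0504).

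Lymphocyte markers rose in part. Of 38 genes of T cells and NK cells 22 rose and 0 fell (median log2 1.70). The rises were 13 without wild type replicate 1, 12 without wild type replicate 2 and 1 with both doubted libraries left out. That last fit called 373 of 17217 genes higher. The summed level of the list was 102 to 167 against 37.6 to 50.2 CPM. Cd4, the coreceptor of helper T cells, was at 3.89, 7.06, 11.7 and 6.905 CPM against 1.27, 0.828 and 1.76 in wild type (log2 2.52, SE 0.44, adjusted p = 0.00665). The kinase gene Lck ranged over 3.62 to 6.37 against 1.06 to 1.45 CPM (log2 2.09, SE 0.28, adjusted p = 0.00316). The transcription factor gene Tcf7 ranged over 4.31 to 6.13 against 1.28 to 2.12 CPM (log2 1.64, SE 0.27, adjusted p = 0.00542). The chemokine gene Ccl5 ranged over 11.1 to 83.2 against 0.678 to 1.73 CPM (log2 4.96, SE 0.78, adjusted p = 0.00497). Of 19 B and plasma cell genes 7 rose (1 with both left out). Among them was Irf4, a transcription factor of plasma cells, at 2.63 to 5.83 against 0.318 to 1.16 CPM (log2 2.53, SE 0.48, adjusted p = 0.00827). Sdc1, which tubule epithelium also expresses, was at 44.1 to 56.8 against 14.6 to 17.4 CPM (log2 1.65, SE 0.12, adjusted p = 0.00118). Of 7 tested neutrophil genes 6 rose, 3 without wild type replicate 1, 4 without wild type replicate 2 and 1 with both left out. Csf3r, the receptor of granulocyte colony stimulating factor, ranged over 2.64 to 4.53 against 0.678 to 1.13 CPM (log2 2.07, SE 0.31, adjusted p = 0.00417). S100a9, a granule protein, ranged over 0.603 to 1.38 against 0.106 to 0.264 CPM (log2 2.17, SE 0.48, adjusted p = 0.014), whose call was lost without wild type replicate 1 (adjusted p = 0.0616). Lcn2 is on the neutrophil list too, and 9 of its 16 genes, among them Ly6g and Mpo, had too few reads to be tested. Cd4, Lck, Tcf7, Irf4, Csf3r and S100a9 lost the call with both doubted libraries left out (adjusted p = 0.0545 to 0.0952).

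Of 28 complement genes 9 rose and 1 fell, and 8 were called higher with both doubted libraries left out. C3, the central component of the cascade, was at 2990.2 and 2854 CPM in the G1 libraries, 689.7 and 362 in the G2 libraries and 48.1, 54.6 and 38.7 in wild type (log2 fold change 5.19, SE 0.87, edgeR adjusted p = 0.00576). Its level was several times higher in G1 than in G2. C1qc, made by macrophages, ranged over 67.4 to 113 against 10.2 to 14.2 CPM (log2 2.84, SE 0.23, adjusted p = 0.0012). The receptor gene C3ar1 ranged over 8.86 to 14.7 against 0.979 to 2.15 CPM (log2 3.05, SE 0.34, adjusted p = 0.00219). C4a fell from 12.8 to 34.04 to 0.702 to 4.06 CPM (log2 -3.66, SE 0.59, adjusted p = 0.00515), and as a near-identical copy of another complement gene it can share reads with it. Of 19 acute phase and fibrinogen genes 10 rose and 1 fell, and 5 were called higher without wild type replicate 2 and 1 with both doubted libraries left out. Serpina3n, a protease inhibitor, was even across the 4 libraries, at 27.01, 28.9, 29.9 and 32.2 CPM against 3.32, 4.71 and 2.79 (log2 3.03, SE 0.20, adjusted p = 0.00111). The others were uneven: Saa1, serum amyloid A, was at 18.4, 21.5, 2.72 and 3.66 CPM against 0.0353 to 0.247 (log2 6.55, SE 1.13, adjusted p = 0.00637). Orm2, an acid glycoprotein, was at 20.6, 6.39, 6.44 and 1.34 against 0.0353 to 0.106 CPM (log2 7.09, SE 1.18, adjusted p = 0.00574). Lbp, which binds lipopolysaccharide, was at 51.9, 53.1, 24.004 and 15.8 against 5.26 to 6.63 CPM (log2 2.61, SE 0.45, adjusted p = 0.00653). Fgg, a fibrinogen chain, was at 315, 190.1, 73.5 and 21.5 against 4.56 to 12.2 CPM (log2 4.19, SE 0.93, adjusted p = 0.0145). Fgg lost its call without wild type replicate 2 (adjusted p = 0.0643) and with limma-voom (adjusted p = 0.055). C3, C4a, Saa1, Orm2, Lbp and Fgg lost the call with both doubted libraries left out (adjusted p = 0.0602 to 0.0923).

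Matrix genes rose with both alleles. Of 42 matrix and fibroblast genes 26 rose and 0 fell (median log2 1.60), 16 with both doubted libraries left out. Fn1, fibronectin, was at 177 and 230.4 CPM in the G1 libraries, 364 and 239.5 in the G2 libraries and 50.6, 43.6 and 37.6 in wild type (log2 fold change 2.52, SE 0.26, edgeR adjusted p = 0.00195). G2 replicate 1 was the highest, and every library with a risk allele was above wild type. The basement membrane collagens Col4a1 and Col4a2 ranged over 659 to 947 against 255 to 316 CPM (log2 1.53, SE 0.17, adjusted p = 0.00216) and over 397 to 519 against 191 to 228 (log2 1.20, SE 0.14, adjusted p = 0.00241). Loxl2, which crosslinks collagen, ranged over 33.3 to 40.6 against 7.49 to 10.2 CPM (log2 2.04, SE 0.14, adjusted p = 0.00111). Of 30 genes of matrix proteases and their inhibitors 19 rose and 1 fell, 10 higher without wild type replicate 1, 11 without wild type replicate 2 and 5 with both doubted libraries left out. The membrane protease gene Mmp14 ranged over 42.3 to 65.04 against 5.84 to 9.32 CPM (log2 2.65, SE 0.23, adjusted p = 0.00151). The lysosomal protease gene Ctss ranged over 81.7 to 127 against 6.67 to 14.8 CPM (log2 3.45, SE 0.32, adjusted p = 0.00169). Adamts4, an aggrecan-cleaving protease, ranged over 1.92 to 3.14 against 0.188 to 0.494 CPM (log2 3.02, SE 0.42, adjusted p = 0.00346). The inhibitor gene Timp3 fell, at 311, 252, 366 and 567 CPM against 949, 1255 and 898 in wild type (log2 -1.47, SE 0.28, adjusted p = 0.00893), opposite in direction to Timp1. Adamts4 and Timp3 lost the call with both doubted libraries left out (adjusted p = 0.0517 to 0.0675).

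**Figure D3:**
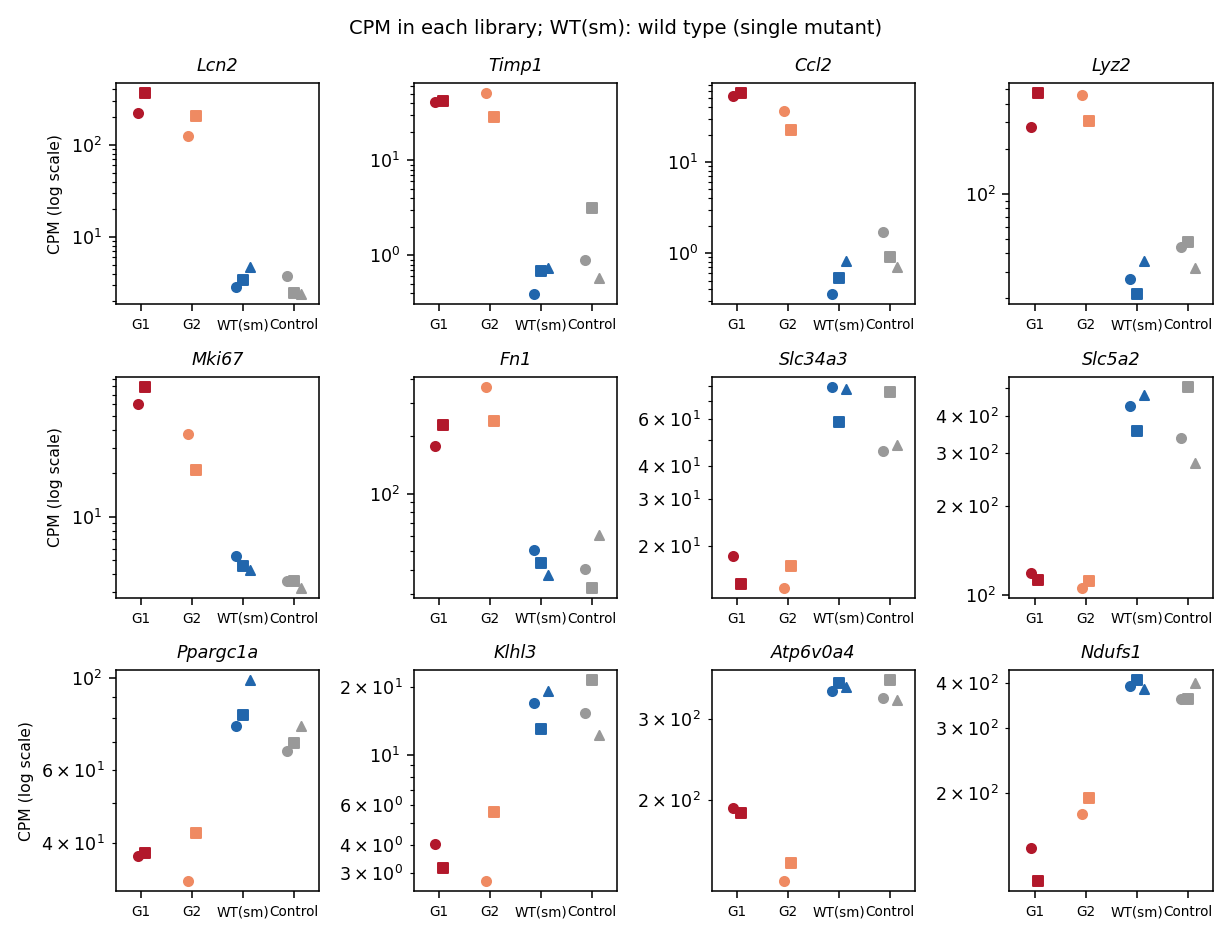
CPM on a log scale, 1 point per library, for 12 genes in the G1, G2, wild type (single mutant) and Control libraries, shaped by replicate; Control was outside the test. For each gene the 4 libraries with a risk allele lie on 1 side of all 3 wild type libraries: above for Lcn2, Timp1, Ccl2, Lyz2, Mki67 and Fn1, below for Slc34a3, Slc5a2, Ppargc1a, Klhl3, Atp6v0a4 and Ndufs1.

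Genes of the cell division cycle rose in most cases. Of 41 such genes 35 rose and 1 fell (median log2 2.38), 22 higher without wild type replicate 2 and 9 with both doubted libraries left out. The proliferation marker Mki67 was at 60.6 and 79.6 CPM in the G1 libraries, 37.2 and 21.1 in the G2 libraries and 5.33, 4.56 and 4.31 in wild type (log2 fold change 3.39, SE 0.46, edgeR adjusted p = 0.00333). Every library with a risk allele was above wild type, and both G1 libraries were above both G2 libraries. Top2a, a topoisomerase of dividing cells, ranged over 16.9 to 51.7 against 3.05 to 3.81 CPM (log2 3.20, SE 0.43, adjusted p = 0.00329). The kinetochore gene Cenpf ranged over 5.41 to 15.8 against 0.828 to 1.24 CPM (log2 3.40, SE 0.46, adjusted p = 0.00327). The checkpoint kinase gene Bub1b ranged over 4.38 to 13.4 against 0.791 to 0.883 CPM (log2 3.37, SE 0.45, adjusted p = 0.00302). Rrm2, a subunit of ribonucleotide reductase, ranged over 15.1 to 56.4 against 6.88 to 7.53 CPM (log2 2.30, SE 0.51, adjusted p = 0.0141). Rrm2 lost its call without wild type replicate 1 or 2 (adjusted p = 0.058) and with limma-voom (adjusted p = 0.0608). The 1 fall was Ccnd1, a cyclin of early cycle entry, at 132, 141, 105 and 118 CPM against 313, 322 and 223 (log2 -1.21, SE 0.17, adjusted p = 0.00346). Rrm2 lost the call with both doubted libraries left out (adjusted p = 0.104).

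Of 27 p53 targets and senescence genes 13 rose and 2 fell, and 2 were called higher with both doubted libraries left out. Trp53 itself, which encodes p53, was at 75.96, 76.9, 65.7 and 51.5 CPM against 34.5, 26.9 and 31.7 (log2 1.12, SE 0.17, adjusted p = 0.00407). Cdkn2a, an inhibitor of the cell cycle known as a senescence marker, had 77 counts in the 4 libraries with a risk allele and 2 in the 3 wild type libraries, a ratio per library size with its exact 95% counting interval of 27.2 (7.27 to 228), or 18.05 (4.83 to 152) without wild type replicate 1. Cdkn1a, the best known p53 target, was at 51.7, 66.8, 24.8 and 38.5 CPM against 6.25, 9.34 and 28.1 and did not pass (log2 fold change 1.64, SE 0.56, edgeR adjusted p = 0.0606). Wild type replicate 3 lay within the range of the libraries with a risk allele, and without it the adjusted p was 0.0124 and the log2 fold change 2.54. Cdkn1a was also called higher by DESeq2 (adjusted p = 0.00678) and by limma-voom (adjusted p = 0.041). In edgeR it was called on library totals alone (adjusted p = 0.0362) and without G2 replicate 1 (adjusted p = 0.0484). The same held with a mean each for G1 and G2 (adjusted p = 0.046) and with all 10 libraries in the fit (adjusted p = 0.0418). Trp53 lost the call with both doubted libraries left out (adjusted p = 0.0507).

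Of 26 immediate early genes, which answer stimuli within minutes, 20 rose and 0 fell (median log2 1.78), 8 with both doubted libraries left out. Socs3, a feedback inhibitor of cytokine signalling, was at 28.4 and 35.97 CPM in the G1 libraries, 27.8 and 24.5 in the G2 libraries and 1.73, 1.62 and 3.67 in wild type (log2 fold change 3.64, SE 0.33, edgeR adjusted p = 0.00169). The transcription factor genes Egr2, Junb and Klf6 ranged over 5.95 to 8.01 against 0.264 to 0.5295 CPM (log2 4.23, SE 0.31, adjusted p = 0.00118), 54.1 to 82.2 against 9.74 to 17.2 (log2 2.23, SE 0.26, adjusted p = 0.00239) and 94.1 to 301 against 31.6 to 39.7 (log2 2.47, SE 0.49, adjusted p = 0.00966). Several of these genes were also high in Control, which took no part in the test. Atf3, a stress-induced factor, was at 35.7, 55.8, 26.2 and 16.8 CPM with a risk allele, 2.68, 2.49 and 2.29 in wild type and 51.1, 2.7005 and 5.27 in Control (log2 3.75, SE 0.43, adjusted p = 0.00221). Fos was at 16.002, 14.1, 5.53 and 4.096 CPM with a risk allele, 0.812, 1.05 and 0.988 in wild type and 12.4, 3.19 and 3.46 in Control (log2 3.38, SE 0.56, adjusted p = 0.00573). Nr4a1, a nuclear receptor, was at 16.1, 16.98, 6.67 and 6.98 CPM, 3.67, 2.94 and 3.35 and 23.4, 13.2 and 10.7 (log2 1.81, SE 0.40, adjusted p = 0.0142), and lost its call without wild type replicate 1 or 2 (adjusted p = 0.051 to 0.0627). For Fos and Nr4a1 every Control library lay above every wild type library, so that wild type was the lowest group of the series. Klf6, Fos and Nr4a1 lost the call with both doubted libraries left out (adjusted p = 0.0681 to 0.101).

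Proximal tubule transporters fell together. Of 32 genes of the early proximal tubule (its S1 and S2 parts) 22 fell and 0 rose (median log2 -1.29), 6 with both doubted libraries left out, and their summed level was 14128 to 19832 CPM with a risk allele against 40356 to 46288 in wild type. Slc34a3, a sodium-phosphate cotransporter, was at 18.4 and 14.4 CPM in the G1 libraries, 13.98 and 16.8 in the G2 libraries and 79.3, 58.4 and 77.8 in wild type (log2 fold change -2.17, SE 0.15, edgeR adjusted p = 0.00111). The 4 libraries were close to each other and far below wild type. The sodium-glucose cotransporter gene Slc5a2 was at 119 and 112 CPM in the G1 libraries, 106 and 112 in the G2 libraries and 432, 358 and 471 in wild type (log2 fold change -1.91, SE 0.12, edgeR adjusted p = 0.001). Its 4 libraries with a risk allele lay close together. Slc9a3, the sodium-proton exchanger, ranged over 7.81 to 15.1 against 49.5 to 61.1 CPM (log2 -2.15, SE 0.22, adjusted p = 0.00195). Cubn, the protein uptake receptor cubilin, ranged over 186 to 226 against 375 to 445 CPM (log2 -0.96, SE 0.12, adjusted p = 0.00272). Of 16 genes of the later segment, S3, 3 fell and 1 rose, beside 13.1% and 16.6% of all genes tested. Their median log2 fold change was -0.87. At an edgeR unadjusted p under 0.05, 6 were lower and 1 higher, beside 7242 of 17009 genes tested in either direction. With a mean each for G1 and G2 in the fit 10 fell, beside 3172 of 17576 genes tested. By DESeq2 5 fell, as without G2 replicate 1. The falls were 2 without G1 replicate 2 or G2 replicate 2. They were 1 without G1 replicate 1 or wild type replicate 1, 2 or 3, on library totals alone and with both doubted libraries left out. Their summed level was 3737 to 8450.1 CPM with a risk allele against 9140.1 to 11509 in wild type, ranges that did not overlap. Slc3a1, a cystine transport subunit, fell, at 159 to 209 against 417 to 535 CPM (log2 -1.32, SE 0.15, adjusted p = 0.00216). The water channel gene Aqp1 was at 335 to 917 against 1308 to 1491 CPM (log2 -1.17, SE 0.36, adjusted p = 0.044). Mogat1, an acylglycerol acyltransferase, was at 71.4 to 169.8 against 209 to 240.4 CPM (log2 -0.86, SE 0.26, adjusted p = 0.0413). The rise was Slc5a1, the other sodium-glucose cotransporter, at 90.7 to 182 against 68.9 to 85.02 CPM (log2 0.86, SE 0.26, adjusted p = 0.0422). Slc3a1 alone of the 4 kept its call with each library left out in turn: Aqp1 lost it without G1 replicate 1 or 2 or wild type replicate 1, 2 or 3 (adjusted p = 0.066 to 0.118), Mogat1 without G1 replicate 1, G2 replicate 2 or wild type replicate 1, 2 or 3 (adjusted p = 0.0534 to 0.125) and Slc5a1 without G1 replicate 1 or 2 or wild type replicate 1, 2 or 3 (adjusted p = 0.0732 to 0.14). On library totals alone Aqp1 and Mogat1 were not called either (adjusted p = 0.078 and 0.0864). Cubn, Aqp1, Mogat1 and Slc5a1 lost the call with both doubted libraries left out (adjusted p = 0.051 to 0.225).

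The transcription regulators of tubule metabolism moved downward in more cases than upward, with 12 of 25 falls and 4 rises (median log2 -0.64), 7 falls without wild type replicate 2, and 5 and 0 with both doubted libraries left out. Ppargc1a, the coactivator of mitochondrial genes, was at 37.2 and 37.97 CPM in the G1 libraries, 32.4 and 42.2 in the G2 libraries and 76.8, 81.6 and 98.8 in wild type (log2 fold change -1.20, SE 0.13, edgeR adjusted p = 0.00204). Its 2 groups did not overlap and the alleles did. Klf15, a regulator of nutrient metabolism, ranged over 49.7 to 70.2 against 155 to 161 CPM (log2 -1.32, SE 0.13, adjusted p = 0.00195). Lhx1, of kidney development, ranged over 6.86 to 8.18 against 18.1 to 21.2 CPM (log2 -1.37, SE 0.13, adjusted p = 0.00178). The retinoid X receptor gene Rxra ranged over 82.6 to 104 against 160.1 to 179 CPM (log2 -0.82, SE 0.11, adjusted p = 0.00301). Hnf4a, a nuclear receptor of proximal tubule identity, ranged over 398 to 527 against 792 to 1117 CPM (log2 -1.06, SE 0.17, adjusted p = 0.00515). Ppara, the fatty acid sensing receptor, was at 24.2, 16.7, 4.29 and 9.02 CPM against 52.95, 52.4 and 37.5 (log2 -1.81, SE 0.50, adjusted p = 0.0312) and lost its call without G1 replicate 2, G2 replicate 2 or wild type replicate 1 or 2 (adjusted p = 0.057 to 0.0951) and on library totals alone (adjusted p = 0.0512). Hnf4a and Ppara lost the call with both doubted libraries left out (adjusted p = 0.0731 to 0.154).

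Genes of several fuel pathways fell. Of 40 genes of fatty acid oxidation and peroxisomes 26 fell and 0 rose (median log2 -0.72), 14 and 12 without wild type replicates 1 and 2, 17 on library totals alone and 5 with both doubted libraries left out. Hadhb, a subunit of the mitochondrial trifunctional protein, was at 78.6 and 74.7 CPM in the G1 libraries, 71.7 and 82.6 in the G2 libraries and 145, 142 and 148 in wild type (log2 fold change -0.91, SE 0.09, edgeR adjusted p = 0.00182). Acadvl, which opens the oxidation of long-chain fatty acids, ranged over 97.2 to 129 against 242 to 259.6 CPM (log2 -1.12, SE 0.12, adjusted p = 0.00206). Etfdh, which passes their electrons to ubiquinone, ranged over 95.02 to 125 against 218 to 240.1 CPM (log2 -1.03, SE 0.12, adjusted p = 0.00241). Of 55 genes of oxidative phosphorylation 21 fell and 0 rose (median log2 -0.52), 10 and 8 without wild type replicates 1 and 2. It was 12 without G1 replicate 1, 36 without G2 replicate 1, 35 by DESeq2, 9 on library totals alone and 1 with both doubted libraries left out. Ndufs1, of complex I, was at 141 and 114 CPM in the G1 libraries, 175 and 193 in the G2 libraries and 392, 406 and 383 in wild type (log2 fold change -1.34, SE 0.18, edgeR adjusted p = 0.00333). Sdha, of complex II, ranged over 383 to 613 against 995 to 1034 CPM (log2 -1.03, SE 0.19, adjusted p = 0.00791). Uqcrc2, of complex III, ranged over 326 to 446 against 642 to 703 CPM (log2 -0.79, SE 0.14, adjusted p = 0.0067). Atp5b, of ATP synthase, ranged over 1667 to 2376 against 4309.6 to 4705 CPM (log2 -1.11, SE 0.20, adjusted p = 0.00712). Sdha, Uqcrc2 and Atp5b lost the call with both doubted libraries left out (adjusted p = 0.0727 to 0.0806).

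Gluconeogenesis, by which the proximal tubule makes glucose from lactate and glutamine, shares a list with glycolysis, and of 36 genes 13 fell and 6 rose, 3 and 0 with both doubted libraries left out. On library totals alone 8 fell, and 2 rose without wild type replicate 2. The final enzyme, G6pc, glucose-6-phosphatase, was at 194 and 172 CPM in the G1 libraries, 127 and 312 in the G2 libraries and 862, 1022 and 1018 in wild type (log2 fold change -2.27, SE 0.29, edgeR adjusted p = 0.00278). Its transporter Slc37a4 ranged over 159 to 212 against 359 to 514 CPM (log2 -1.30, SE 0.17, adjusted p = 0.00302). Fbp1, fructose bisphosphatase, ranged over 383 to 628 against 1382 to 1645 CPM (log2 -1.53, SE 0.20, adjusted p = 0.00316). Pcx, pyruvate carboxylase, ranged over 183 to 331 against 759.8 to 1044 CPM (log2 -1.78, SE 0.23, adjusted p = 0.0028). Slc37a4 lost the call with both doubted libraries left out (adjusted p = 0.051). All 4 named steps of glucose release fell with both alleles. The promoter of G6pc is shown as that of the largest fall of the 4, with a match to TTAATNATT, searched on both strands as a form of the site of the hepatocyte nuclear factor HNF1, in capitals (RefSeq, GRCm38.p6, chr11:101367466-101367765, plus strand, from 250 bases before to 50 after the start).
G6pc: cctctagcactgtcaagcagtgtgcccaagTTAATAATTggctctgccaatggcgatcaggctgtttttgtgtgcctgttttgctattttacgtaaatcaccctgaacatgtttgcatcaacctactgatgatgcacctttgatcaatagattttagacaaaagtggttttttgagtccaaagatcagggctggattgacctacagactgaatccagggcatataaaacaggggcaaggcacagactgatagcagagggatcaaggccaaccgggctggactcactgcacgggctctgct

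The match begins 220 bases before the start, and 465 of the 27025 windows (1.72%) hold one. It is a description of these letters only.

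Transport genes of distal segments fell too. Of 20 loop of Henle genes 8 fell and 2 rose, 1 and 1 with both doubted libraries left out. Those called lower were 5 and 4 without G1 replicates 1 and 2, 5, 5 and 4 without wild type replicates 1, 2 and 3, and 4 on library totals alone. Egf, which encodes the growth factor made by the thick ascending limb and distal tubule, was at 310.5 and 414 CPM in the G1 libraries, 425 and 461 in the G2 libraries and 1173, 1169 and 1195 in wild type (log2 fold change -1.55, SE 0.16, edgeR adjusted p = 0.00195). The calcium sensing receptor gene Casr ranged over 9.69 to 17.2 against 22.9 to 41.6 CPM (log2 -1.44, SE 0.27, adjusted p = 0.00773). The potassium channel gene Kcnt1 ranged over 1.11 to 7.08 against 19.5 to 24.03 CPM (log2 -2.68, SE 0.57, adjusted p = 0.0127). Cldn16, a claudin of magnesium uptake in the same segment, rose instead, at 21.2 to 32.6 against 7.57 to 10.1 CPM (log2 1.53, SE 0.19, adjusted p = 0.00272). Of 19 genes of the distal tubule beyond the loop (distal convoluted and connecting segments) 13 fell and 0 rose (median log2 -1.001), 2 with both doubted libraries left out. Slc12a3, the thiazide-sensitive salt transporter, was at 85.6 and 76.5 CPM in the G1 libraries, 153 and 157 in the G2 libraries and 485, 422 and 684 in wild type (log2 fold change -2.17, SE 0.31, edgeR adjusted p = 0.00379). Klhl3, which controls the degradation of its regulatory kinases, ranged over 2.75 to 5.59 against 12.95 to 19.2 CPM (log2 -2.08, SE 0.28, adjusted p = 0.00305). Cnnm2 and Trpm7, both of magnesium transport, ranged over 19.2 to 23.7 against 36.2 to 43.9 CPM (log2 -0.86, SE 0.12, adjusted p = 0.00359) and over 76.7 to 91.3 against 127 to 135 (log2 -0.65, SE 0.10, adjusted p = 0.00447). Casr, Kcnt1, Klhl3 and Trpm7 lost the call with both doubted libraries left out (adjusted p = 0.051 to 0.0871).

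The collecting duct holds acid-base regulating intercalated cells and salt and water transporting principal cells. Of 18 intercalated cell genes 8 fell and 0 rose (median log2 -0.71), 2 with both doubted libraries left out. Atp6v0a4, a subunit of the proton pump, was at 192 and 187 CPM in the G1 libraries, 133 and 146 in the G2 libraries and 346, 359.6 and 353 in wild type (log2 fold change -1.10, SE 0.15, edgeR adjusted p = 0.00346). Atp6v1c2, another subunit, ranged over 14.8 to 22.03 against 29.8 to 42.5 CPM (log2 -0.91, SE 0.19, adjusted p = 0.0116). The oxoglutarate receptor gene Oxgr1 ranged over 10.01 to 12.1 against 22.3 to 35.3 CPM (log2 -1.36, SE 0.17, adjusted p = 0.00271). The carbonic anhydrase gene Car12 ranged over 158 to 219 against 340.3 to 430.4 CPM (log2 -1.10, SE 0.16, adjusted p = 0.0041). Of 17 principal cell genes, beside the 16.6% and 13.1% of all genes tested, 1 fell and 1 rose. Scnn1a, a subunit of the sodium channel ENaC, fell, at 77.2 to 107 against 117 to 167 CPM (log2 -0.63, SE 0.16, adjusted p = 0.0235). St6gal1, a sialyltransferase, was at 31.9 to 37.9 against 16.5 to 22.2 CPM (log2 0.88, SE 0.13, adjusted p = 0.0043). Scnn1a lost its call without G1 replicate 2 or wild type replicate 2 or 3 (adjusted p = 0.0602 to 0.085), and on library totals alone (adjusted p = 0.13). The difference between the 2 cell types was not tested. Atp6v1c2, Car12, Scnn1a and St6gal1 lost the call with both doubted libraries left out (adjusted p = 0.0609 to 0.0738).

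**Figure D4:**
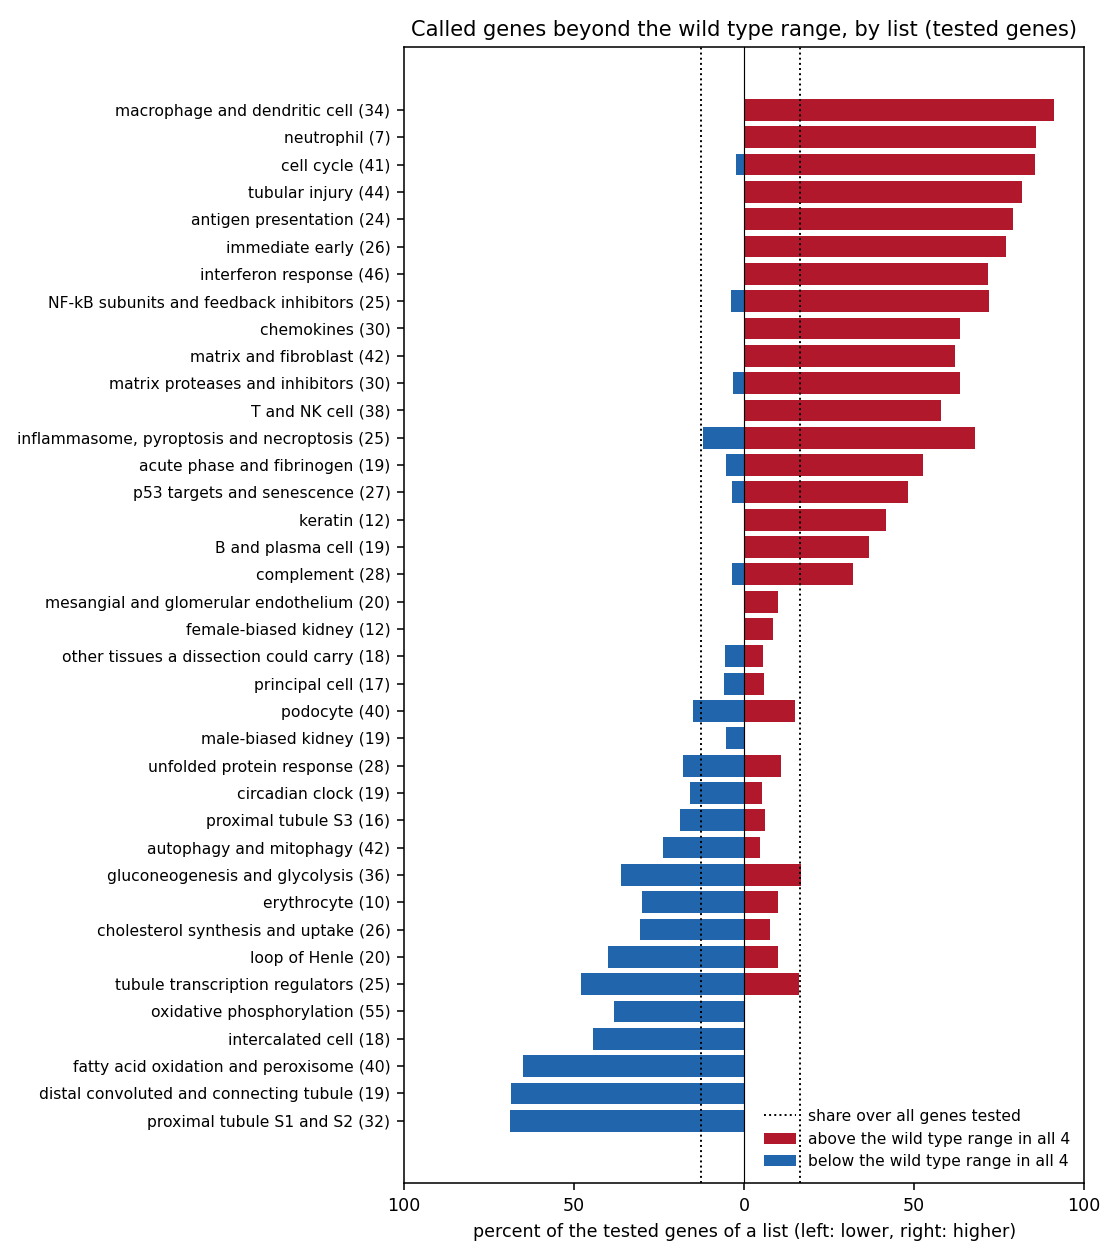
Percent of the tested genes of each list (number tested in brackets) that were called and lay above (right, red) or below (left, blue) the wild type (single mutant) range in all 4 libraries with a risk allele, for lists with at least 7 tested genes. Dotted lines mark the shares over all genes tested, 16.4% higher and 12.8% lower; the immune, injury, cell cycle and matrix lists extend far to the right and the tubule and fuel metabolism lists to the left.

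Where a list had no called gene in a direction, edgeR's unadjusted p under 0.05 gave 1 gene lower for tubular injury, 1 lower for mesangium and glomerular endothelium, 2 lower for the female-biased list and 1 higher for the early proximal tubule, and none in the other lists apart from the Apol family and the sex chromosome list (1 higher each). In these empty directions DESeq2 called 1 gene each for tubular injury, the early proximal tubule, the Apol family and the female-biased list, and limma-voom 1 for the female-biased list. The edgeR fit with a mean each for G1 and G2 called 3 lower for mesangium and glomerular endothelium, 3 lower for the female-biased list and 1 higher for the early proximal tubule. Some edgeR fits on library totals alone or with a library left out called genes there too.

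Counts for other cell pathways are given beside the 16.6% of all genes tested that rose and the 13.1% that fell, and some depended on the scaling. Of 26 genes of cholesterol synthesis and uptake 9 fell and 2 rose, 3 and 2 on library totals alone. Among the falls was Idi1, an enzyme of isoprenoid synthesis, at 1.87 to 5.31 against 13.8 to 20.2 CPM (log2 -2.41, SE 0.37, adjusted p = 0.0044). Of 42 autophagy and mitophagy genes 10 fell and 2 rose (median log2 -0.22), which became 4 and 7 on library totals alone, with a median of 0.07. Atg9a, a membrane protein of forming autophagosomes, ranged over 11.6 to 18.5 against 34.1 to 39.9 CPM (log2 -1.27, SE 0.18, adjusted p = 0.00352). Gabarapl1, which labels their membrane, ranged over 435 to 509 against 774 to 981 CPM (log2 -0.88, SE 0.14, adjusted p = 0.00462). Pink1, a kinase of mitophagy, ranged over 183 to 299.6 against 417 to 528 CPM (log2 -1.03, SE 0.18, adjusted p = 0.00673). Of 28 genes of the unfolded protein response 5 fell and 3 rose, shares near those over all genes tested, which turned to 2 and 6 on library totals alone. Asns, asparagine synthetase, rose to 8.22 to 21.3 from 2.79 to 3.502 CPM (log2 2.23, SE 0.32, adjusted p = 0.00395). Trib3, a pseudokinase, rose to 2.71 to 3.94 from 0.753 to 1.24 CPM (log2 1.68, SE 0.28, adjusted p = 0.00562). Edem1, of the degradation of misfolded glycoproteins, fell to 69.6 to 83.2 from 117 to 163 CPM (log2 -0.86, SE 0.13, adjusted p = 0.00463). Of 19 clock genes 3 fell, also near the share over all genes, and 1 rose. DESeq2 called 7 lower, beside 2899 of 17009 genes tested. Among the falls was Hlf, a transcription factor with a daily rhythm, at 58.7 to 95.1 against 118 to 231 CPM (log2 -1.30, SE 0.26, adjusted p = 0.0105). The falls were 5 for cholesterol without G1 replicate 2 or wild type replicate 1 or 2, 6 for autophagy without G1 replicate 2 or wild type replicate 2, 3 for the unfolded protein response without G1 replicate 1 or 2 and 2 without wild type replicate 1 or 2, and 9 for the clock without wild type replicate 3. With both doubted libraries left out, the calls in these lists were 2 falls for cholesterol and 0 of either direction in edgeR for autophagy, the unfolded protein response and the clock, where over all genes 4564 had an unadjusted p under 0.05.

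Podocytes are the cells that the series title names, and the shares of their genes called in each direction were near those over all genes tested. Of 40 podocyte genes 6 rose and 7 fell, beside 16.6% and 13.1% of all genes tested, with a median log2 fold change of -0.18 on the TMM scale and 0.10 on library totals alone. The falls were Nphs1, Vegfa, Col4a4, Dach1, Rhpn1, Enpep and Ddn. They numbered 2 on library totals alone, 4 without G1 replicate 1, 2 without G1 replicate 2, 2 without wild type replicate 1 and 2 without wild type replicate 3. With both doubted libraries left out 2 rose and 0 fell, beside 373 and 182 of 17217 genes tested. Nphs1, which encodes the slit diaphragm protein nephrin (GRCm38 chromosome 7, 30458315 to 30487223, plus strand), was at 4.59 and 5.89 CPM in the G1 libraries, 10.02 and 9.89 in the G2 libraries and 19.3, 9.64 and 33.5 in wild type (log2 fold change -1.45, SE 0.44, edgeR adjusted p = 0.0426). It fell in the test, but both G2 libraries lay just above wild type replicate 2, so it was not beyond the wild type range. Nphs1 lost its call without G1 replicate 1 or 2 or wild type replicate 1 or 3 (adjusted p = 0.0878 to 0.142). It was not called on library totals alone (adjusted p = 0.0724), with limma-voom (adjusted p = 0.0623) or with all 10 libraries in the fit (adjusted p = 0.0542), and without wild type replicate 3 its log2 fold change was -0.93. Podxl, podocalyxin, was at 97.9, 96.9, 140.4 and 131 CPM against 156, 106 and 259.7 and did not pass (log2 fold change -0.58, SE 0.30, edgeR adjusted p = 0.175). Wt1, a transcription factor of podocytes, was at 8.12, 8.803, 5.297 and 4.92 CPM against 4.34, 3.16 and 10.4 (log2 fold change 0.18, SE 0.43, edgeR adjusted p = 0.776) and Synpo, synaptopodin, at 38.6, 35.1, 53.8 and 40.3 against 33.3, 24.7 and 64.2 (log2 fold change 0.04, SE 0.32, edgeR adjusted p = 0.931). These 4 genes were highest in wild type replicate 3 among the wild type libraries, and without it the log2 fold changes of Podxl and Wt1 were -0.17 and 0.85. Nphs1 lost the call with both doubted libraries left out (adjusted p = 0.196).

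The 6 podocyte genes that rose were Kirrel2, Kirrel, Cd2ap, Myh9, Inf2 and Nes, several of which other kidney cells express too. Kirrel2 (GRCm38 chromosome 7, 30447534 to 30457690, minus strand), a slit diaphragm protein gene next to Nphs1, was at 3.05 and 3.25 CPM in the G1 libraries, 5.06 and 5.59 in the G2 libraries and 0.177, 0.264 and 0.212 in wild type (log2 fold change 4.26, SE 0.37, edgeR adjusted p = 0.00157). It was at 5.98, 9.34 and 2.27 CPM in Control, so the wild type libraries, not those with a risk allele, stood apart from the rest of the series. Myh9, a non-muscle myosin, ranged over 475 to 662 against 208 to 263 CPM (log2 1.31, SE 0.17, adjusted p = 0.00278). Inf2, an actin-nucleating formin, ranged over 29.5 to 34.8 against 14.05 to 17.1 CPM (log2 1.01, SE 0.11, adjusted p = 0.00219). Nes, the intermediate filament nestin, ranged over 54.2 to 94.8 against 17.4 to 27.8 CPM (log2 1.90, SE 0.25, adjusted p = 0.00309). Of 20 genes of mesangium and glomerular endothelium 2 rose, a smaller share than the 16.6% of all genes tested. None fell in the main edgeR fit, where 1 was lower at an unadjusted p under 0.05. In other edgeR fits 3 fell with a mean each for G1 and G2, and 2 without G2 replicate 2. Des, desmin, was at 30.3 to 37.6 against 13.03 to 21.99 CPM (log2 0.86, SE 0.19, adjusted p = 0.0131). Plat, tissue plasminogen activator, was at 474, 386, 99.1 and 121 against 35.5, 30.01 and 87.8 CPM (log2 2.402, SE 0.69, adjusted p = 0.0343), whose call was lost without G1 replicate 1 or 2 or wild type replicate 1 or 2 (adjusted p = 0.0683 to 0.121). Of the mouse Apol family, the relatives of APOL1, 5 of 14 genes had enough reads and none was called by the main edgeR fit or limma-voom. DESeq2 called 1 higher, as did edgeR on library totals alone, and 1 had an unadjusted p under 0.05 in the main edgeR fit. Myh9, Nes, Des and Plat lost the call with both doubted libraries left out (adjusted p = 0.0508 to 0.211).

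Kirrel2 was 1 of 34 of the 4966 genes, 17 higher and 17 lower, in which each Control library lay nearer to the mean of the libraries with a risk allele than to that of wild type, a description with no test. Besides Fos and Nr4a1, the higher ones included Cebpb, a transcription factor of the acute phase, at 70.9, 79.5, 41.7 and 39.9 CPM with a risk allele, 24.8, 22.6 and 16.5 in wild type and 40.9, 38.1 and 63.95 in Control (log2 1.45, SE 0.29, adjusted p = 0.0104). The histone gene H3f3b was at 309.6 to 354 CPM, 193 to 217 and 292 to 325 (log2 0.69, SE 0.11, adjusted p = 0.0046). Klf11, a Krüppel-like factor, was at 15.96 to 27.9, 9.67 to 11.2 and 15.7 to 19.9 CPM in the same order (log2 1.08, SE 0.20, adjusted p = 0.00808). Jund was at 162 to 218, 95.8 to 143 and 149 to 206 CPM (log2 0.75, SE 0.19, adjusted p = 0.0235), and lost its call without G1 replicate 1 or 2 or wild type replicate 1 or 3 (adjusted p = 0.0531 to 0.0975). Of the 17 lower ones, 9 were liver-type transcripts. In all 9, wild type replicate 1 lay far above the other wild type libraries and raised the wild type mean. Mup10, for example, was at 8.47, 1.09 and 0.565 CPM in wild type and 0.468, 0.225 and 0.371 in Control. These 9 therefore do not show wild type as a whole standing apart from Control. Cebpb, H3f3b, Klf11 and Jund lost the call with both doubted libraries left out (adjusted p = 0.0671 to 0.193).

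**Figure D5:**
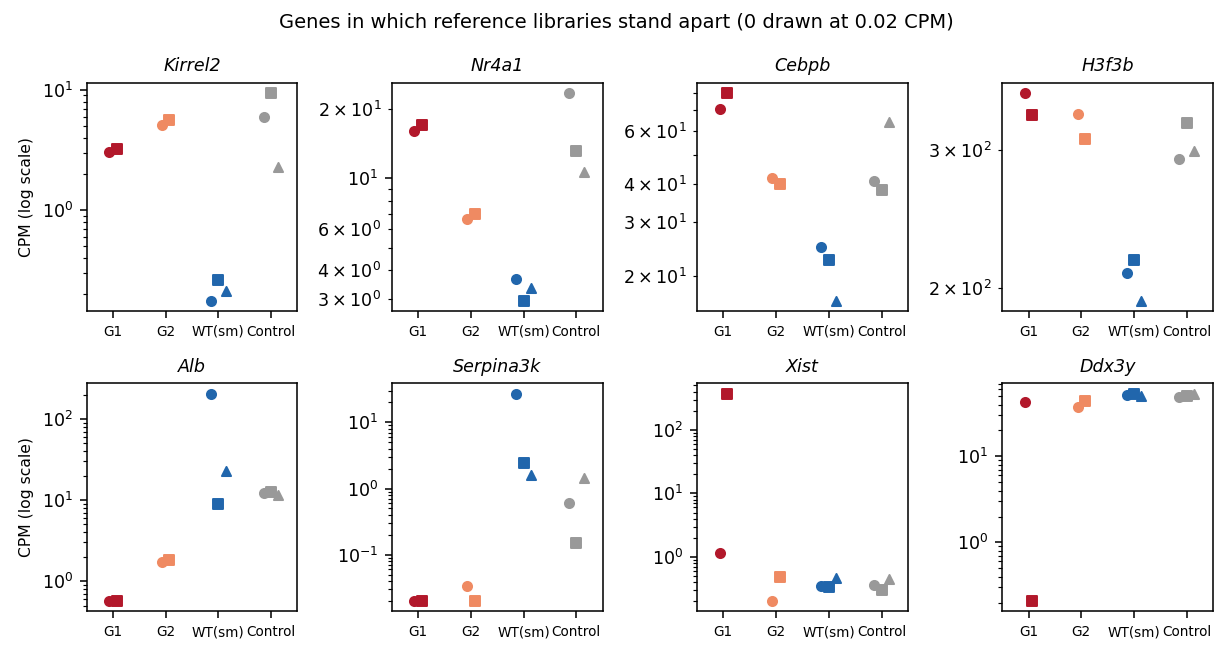
CPM on a log scale, 1 point per library, for 8 genes in the G1, G2, wild type (single mutant) and Control libraries, shaped by replicate, with values of 0 drawn at 0.02 CPM. For Kirrel2, Nr4a1, Cebpb and H3f3b the Control libraries lie with or near those with a risk allele; for Alb and Serpina3k wild type replicate 1 stands far above the rest, and for Xist and Ddx3y G1 replicate 2 stands alone.

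The steepest falls were transcripts of plasma proteins and enzymes known from liver. Their values rest in large part on wild type replicate 1. A group of 14 such genes, listed after their values were seen, summed to 363 CPM in that library, 30.95 and 35.96 in the other wild type libraries, 1.78 to 6.37 with a risk allele and 17.97 to 22.3 in Control. Of the 14, 13 were beyond the wild type range, and 10 of them were still called lower without wild type replicate 1. Alb, albumin, was at 0.567 and 0.571 CPM in the G1 libraries, 1.71 and 1.83 in the G2 libraries and 205, 8.9997 and 22.9 in wild type (log2 fold change -6.09, SE 1.15, edgeR adjusted p = 0.00837). Without wild type replicate 1 its log2 fold change was -3.77 (adjusted p = 0.02004), and limma-voom on all 7 libraries did not call it (adjusted p = 0.0564). Ahsg, fetuin, was at 0 to 0.0515 CPM against 23.7, 1.17 and 1.02, with a log2 fold change of -8.09 (SE 1.52, adjusted p = 0.0082) and, without wild type replicate 1, of -5.13 (adjusted p = 0.0157).

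For 4 liver-type genes the libraries with a risk allele held almost no reads. Serpina3k, a protease inhibitor gene, had 1 count in the 4 libraries with a risk allele and 874 in the 3 wild type libraries, a ratio of wild type to risk allele with its exact 95% counting interval of 1238 (222 to 48943). Mup3 and Mup10, major urinary protein genes, had 1 count each against 654 and 285, ratios of 926 (166 to 36637) and 404 (71.9 to 15997). Cyp3a11, a drug-metabolising cytochrome, had 2 counts against 257, a ratio of 182 (49.9 to 1511). Most of the wild type counts came from wild type replicate 1. Without it the ratios were 237 (41.6 to 9435) for Serpina3k, 226 (39.7 to 9014) for Mup3, 95.99 (16.4 to 3874) for Mup10 and 69.3 (18.4 to 585) for Cyp3a11. Serpina3 and Mup genes have near-identical copies that can share reads. Ces1c, a plasma carboxylesterase, was at 0 to 0.0540 CPM against 8.83, 0.904 and 0.882 (log2 -6.81, SE 1.18, adjusted p = 0.00637), and -4.83 without wild type replicate 1 (adjusted p = 0.0158). These intervals cover counting error only.

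Other steep falls did not follow wild type replicate 1. Nccrp1, an F-box protein gene of epithelia, was at 0.351 and 0.415 CPM in the G1 libraries, 0.402 and 1.34 in the G2 libraries and 32.2, 46.1 and 73.7 in wild type (log2 fold change -6.31, SE 0.54, edgeR adjusted p = 0.00145). In Control it was at 50.9, 0.638 and 42.1 CPM, 1 library of which was as low as those with a risk allele. Pde6a, a phosphodiesterase subunit, was at 0.648, 0.286, 1.31 and 1.65 CPM against 16.5, 13.5 and 16.1 (log2 -3.98, SE 0.52, adjusted p = 0.00288). Hsd17b13, a lipid droplet dehydrogenase, was at 0.459, 0.0519, 0.771 and 0.8502 against 11.7, 12.5 and 2.9998 CPM (log2 -4.09, SE 0.79, adjusted p = 0.00887). Cyp2d12, a cytochrome P450 gene, was at 1.51, 3.77, 2.68 and 5.51 CPM against 10.7, 8.62 and 144 (log2 -4.01, SE 1.04, adjusted p = 0.0243). Hpd, an enzyme of tyrosine breakdown, was at 18.6, 10.4, 17.9 and 8.99 against 34.8, 47.1 and 274 CPM (log2 -3.08, SE 0.72, adjusted p = 0.0173). For both, wild type replicate 3 was far above the other wild type libraries. Without it the log2 fold change was -1.55 for Hpd and -1.52 for Cyp2d12, whose call was lost without G1 replicate 1 or 2, G2 replicate 1 or wild type replicate 3 (adjusted p = 0.0552 to 0.0602) and with limma-voom (adjusted p = 0.118). Hsd17b13, Cyp2d12 and Hpd lost the call with both doubted libraries left out (adjusted p = 0.0515 to 0.0771).

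Red cell and sex-biased transcripts moved with single libraries or alleles. Of 10 erythrocyte genes 4 fell and 1 rose, beside 13.1% and 16.6% of all genes tested. With both doubted libraries left out 0 fell and 0 rose. Slc4a1, the anion exchanger of red cells and intercalated cells, was at 7.23, 7.76, 18.9 and 22.5 CPM against 44.9, 45.8 and 67.4 (log2 -1.90, SE 0.43, adjusted p = 0.0146). Alas2, the erythroid enzyme of heme synthesis, was at 0.405, 0.441, 1.98 and 4.12 CPM against 10.3, 14.6 and 16.9 (log2 -3.00, SE 0.77, adjusted p = 0.0238) and lost its call without wild type replicate 1, 2 or 3 (adjusted p = 0.055 to 0.0702). Hba-a2, a globin gene with a near-identical copy, was called (log2 -6.46, SE 1.83, adjusted p = 0.0335) but not beyond the range, at 0.189, 0.0519, 0.268 and 0.361 against 0.353, 0.414 and 57.4 CPM, and without wild type replicate 3 its log2 fold change was -0.82 (adjusted p = 0.386). Limma-voom and the fit of all 10 libraries did not call it (adjusted p = 0.248 and 0.053). The rise was Epb42, a red cell membrane protein gene, at 1.39 to 2.01 against 0.106 to 0.904 CPM (log2 1.80, SE 0.57, adjusted p = 0.048), which lost the call without G1 replicate 1 or 2, G2 replicate 1 or 2 or wild type replicate 1 (adjusted p = 0.0515 to 0.144), with DESeq2 size factors (adjusted p = 0.0509) and without a filter (adjusted p = 0.054). Of 19 male-biased kidney genes 2 fell, Cyp4b1 and Odc1, beside 13.1% of all genes tested, and the median log2 fold change of the 19 was -1.74. By DESeq2 6 fell, beside 2899 of 17009 genes tested. With a mean each for G1 and G2 in the fit 14 fell (median -2.19), beside 3172 of 17576 genes tested. By edgeR 0 fell without G1 replicate 1 or wild type replicate 1 or 2, where 6433, 5915 and 5925 of all genes tested had an unadjusted p under 0.05. Cyp4b1, a cytochrome P450 that male kidneys express strongly, was at 632, 213, 1703 and 1532 CPM against 4429, 5628 and 4142 (log2 -2.21, SE 0.63, adjusted p = 0.0335). Cyp4a12a, a cytochrome of the same kind outside that list, was at 15.6, 8.67, 111 and 101 against 278, 600.00 and 350.4 CPM (log2 -2.79, SE 0.87, adjusted p = 0.045). G1 replicate 2, the library with Xist, was the lowest for both, and G1 replicate 1, with Y-linked transcripts, was the second lowest. Cyp4b1 lost its call without G1 replicate 1 or wild type replicate 1, 2 or 3 (adjusted p = 0.0605 to 0.0992) and Cyp4a12a without G1 replicate 1 or 2 or wild type replicate 1, 2 or 3 (adjusted p = 0.0528 to 0.134). Of 12 female-biased genes 1 rose, a smaller share than the 16.6% of all genes tested. It was Abcc3, an organic anion exporter, at 12.9 to 23.2 against 4.71 to 6.04 CPM (log2 1.75, SE 0.26, adjusted p = 0.00404). The part of sex in these results was not tested. Slc4a1, Alas2, Hba-a2, Epb42, Cyp4b1, Cyp4a12a and Abcc3 lost the call with both doubted libraries left out (adjusted p = 0.0517 to 0.239).

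Some members changed by nearly the same amount in all 4 libraries. Ptgfrn, a membrane protein gene of the immunoglobulin superfamily, was at 46.2 and 45.4 CPM in the G1 libraries, 44.7 and 46.4 in the G2 libraries and 14.3, 17.5 and 15.7 in wild type (log2 fold change 1.53, SE 0.10, edgeR adjusted p = 0.001). Its 4 changes ran from 1.47 to 1.52. Plec, the cytoskeletal linker plectin, was at 145, 155, 142 and 146 CPM against 64.1, 59.3 and 77.04 (log2 1.14, SE 0.11, adjusted p = 0.00195). The prostaglandin receptor gene Ptger4 was at 9.15 to 10.5 against 2.11 to 4.62 CPM (log2 1.48, SE 0.27, adjusted p = 0.00771). Enc1, an actin-binding protein gene, was at 17.999 to 20.7 against 6.29 to 9.74 CPM (log2 1.29, SE 0.18, adjusted p = 0.0033). Rsl1, a zinc finger repressor, and Ypel4 were low but as even, at 3.08 to 3.4001 against 0.6401 to 1.02 CPM (log2 1.86, SE 0.25, adjusted p = 0.00319) and 1.38 to 1.58 against 0.282 to 0.565 (log2 1.90, SE 0.31, adjusted p = 0.00515). Among the 6 most even falls past 2-fold in all 4 libraries, 5 were liver-type genes near 0 CPM with a risk allele, and the other was C2cd2l, at 59.04, 64.3, 60.2 and 63.2 CPM against 145, 156 and 114 (log2 -1.17, SE 0.12, adjusted p = 0.00195), which encodes a lipid transfer protein at membrane contacts. Ptger4, Enc1, Rsl1 and Ypel4 lost the call with both doubted libraries left out (adjusted p = 0.0517 to 0.0793).

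At the other end stood genes whose rise or fall differed between the alleles. In a test of G2 minus G1 with a mean for each genotype in the same 7 libraries, 467 of 17576 genes (2.66%) were higher in G2 and 379 (2.16%) lower, 4.81% in either direction. Of the 2789 higher members 227 were lower in G2 and 23 higher, and of the 2177 lower members 98 were higher in G2 and 2 lower. The pooled test and this one share the libraries with a risk allele, so these counts are given side by side only. Klf6 rose less in G2 (log2 -1.62, SE 0.13, adjusted p = 0.00961), as did Rrm2 (log2 -1.69, SE 0.14, adjusted p = 0.00961). Dnase1, a secreted nuclease, was at 46.3, 35.4, 231 and 229 CPM against 884, 904 and 1002 (log2 -2.78, SE 0.68, adjusted p = 0.0201), less deep in G2 by the difference of the alleles (log2 2.49, SE 0.17, adjusted p = 0.00785). Cyp2j11, a cytochrome P450 gene, was at 44.01, 41.1, 114 and 114 CPM against 199.8, 194 and 191 (log2 -1.32, SE 0.39, adjusted p = 0.0391), again less deep in G2 (log2 1.42, SE 0.10, adjusted p = 0.00785). Dnase1 lost its call in the pooled comparison without wild type replicate 1 or 2 (adjusted p = 0.0556 to 0.0585) and Cyp2j11 without G1 replicate 1 or 2 or wild type replicate 1, 2 or 3 (adjusted p = 0.0652 to 0.102) and on library totals alone (adjusted p = 0.0624). Among the 6 members with the widest range of changes was Atp13a4, an ion transport ATPase gene, at 7.39, 9.97, 1.01 and 0.4895 CPM against 0.0706, 0.0377 and 0.0706 (log2 6.21, SE 1.39, adjusted p = 0.0148), a rise whose call was lost without wild type replicate 1 or 2 (adjusted p = 0.0606 to 0.0652) and with limma-voom (adjusted p = 0.0669). The count of genes that differ between the alleles rests on single libraries: 848 were higher and 658 lower in G2 without wild type replicate 3, 157 and 83 without wild type replicate 1, 31 and 5 without G1 replicate 1, 59 and 18 without G2 replicate 2, 219 and 171 without G2 replicate 1, and 1 and 0 without G1 replicate 2, where 2694 genes had an unadjusted p under 0.05 in edgeR. Dnase1, Cyp2j11 and Atp13a4 lost the call with both doubted libraries left out (adjusted p = 0.0807 to 0.163).

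The edge of the selection was narrow. Just inside it lay Hnrnpf, an RNA-binding protein gene, at 52.4, 54.6, 44.3 and 50.4 CPM against 35.5, 33.5 and 44.3 (log2 0.42, SE 0.13, adjusted p = 0.0433), its lowest library at 44.32 above the highest wild type library at 44.29, and Chuk, described above. Just outside it on the lower side lay Sil1, a cochaperone, at 42.2, 41.1, 62.6 and 49.9 against 70.6, 78.5 and 62.2 CPM (log2 -0.53, SE 0.17, adjusted p = 0.0474). In Sil1 1 library with a risk allele fell just within the wild type range. Both Hnrnpf and Sil1 lost their calls when single libraries were left out, Hnrnpf without G1 replicate 1 or 2, G2 replicate 2 or wild type replicate 1 or 2 (adjusted p = 0.0598 to 0.149) and Sil1 without G1 replicate 1 or 2, G2 replicate 2 or wild type replicate 1, 2 or 3 (adjusted p = 0.0551 to 0.156). Without a filter neither was called (adjusted p = 0.0674 and 0.0617), nor was Sil1 on library totals alone (adjusted p = 0.216). Besides Hba-a2 and Ccl28, the called genes with the largest fold changes that were not beyond the range included Dpys, an enzyme of pyrimidine breakdown, at 0.351, 0.3895, 0.771 and 1.08 CPM against 1.77, 0.452 and 44.96 (log2 -4.60, SE 1.40, adjusted p = 0.0425). Lyz1, the intestinal lysozyme gene, was at 0.594, 1.9996, 3.52 and 9.33 against 0.282, 0.6401 and 0.353 CPM (log2 3.18, SE 0.93, adjusted p = 0.0372). Dpys rested on wild type replicate 3, without which its log2 fold change was -0.78, and it lost its call without G1 replicate 1 or 2, G2 replicate 1 or 2 or wild type replicate 3 (adjusted p = 0.0615 to 0.424). Lyz1 lost its call without G2 replicate 1 or wild type replicate 1, 2 or 3 (adjusted p = 0.0564 to 0.126). Limma-voom called neither Dpys nor Lyz1 (adjusted p = 0.264 and 0.116). Hnrnpf, Sil1, Dpys and Lyz1 lost the call with both doubted libraries left out (adjusted p = 0.115 to 0.283).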

How the data were processed

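Poly(A) RNA of whole mouse kidney was sequenced from TruSeq libraries as single reads of 100 bases, per the labels' protocols, which name different RNA kits in different places. The tools the authors named, per the submitters' processing notes, were HTSeq 0.6.1, STAR 2.4.1d, CASAVA 1.8.2, Trim Galore and FastQC, and the build was GRCm38. The deposited values are raw counts per gene. The sources used here do not give the strand setting or the annotation release, so reads of antisense partners and of near-identical copies cannot be told apart.

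Groups came from the labels. Genes passed edgeR 4.0.16's filterByExpr with a minimum count of 10, and the 4 libraries with a risk allele were tested against the 3 wild type (single mutant) libraries by its quasi-likelihood test with TMM factors and Benjamini-Hochberg adjustment, 2 groups and no covariate. SEs are the fold change over the root of the F statistic. G2 minus G1 used the same libraries with a mean for each genotype. Control CPM used TMM over all 10 libraries, set on the scale of the 7. The main fit recovered known fold changes in data simulated from these libraries. In those data few genes changed, equally often up and down, and no library stood apart. They therefore do not test the scaling or the doubted libraries. Alternatives were DESeq2 1.42.0, limma-voom (limma 3.58.1), other scalings, filters and designs, and each library left out. No 2 libraries had counts as alike as repeats of 1 library would.

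Named genes were the 12 rises and 12 falls with the largest change in their weakest library, the 6 most even rises and falls past 2-fold, the 6 most uneven members, up to 4 members of the lowest p per list, podocyte markers, the 4 largest called non-members, the genes nearest the edge and up to 4 members of the lowest p for G2 minus G1. Others (Runx1, Cdkn1a, Trp53, Nfkbia, the liver-type genes, the sex-linked genes, those compared with Control and a few more) were chosen after their values were seen. A few genes that the rule names are not reported here. Members and the 40 gene lists were chosen with earlier results of these data known. Promoter windows came from RefSeq.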

Additional observations from a re-analysis of the deposited data

Results flagged for a closer look

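In 14 of the 190 genes examined one by one, 1 of the 4 libraries with a risk allele stood apart from the other 3. The gap took most of the group's range, past the critical value of Dixon's test, which chance gives in about 1 in 20 groups. The count is not far from that share, so the genes are listed as a description. G1 replicate 1 was the highest for Cd14 (0.847 of the range) and the lowest for Lck (0.854) and Ifitm3 (0.857). G1 replicate 2 was the highest for S100a9 (0.840) and Xist (0.863) and the lowest for Slc3a1 (0.871), Ddx3y (0.962) and Eif2s3y (0.943), the last of which is Y-linked. G2 replicate 1 was the highest for Des (0.850) and G2 replicate 2 for Nccrp1 (0.905). For Serpina3k, Mup3, Mup10 and Cyp3a11 the share was 1, since 1 library held the only 1 or 2 counts of the group.

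In the test of G2 minus G1 in edgeR, 24 members among the 182 called genes examined one by one differed between the alleles. Over all genes tested 4.81% were called in either direction. Some of the 24 were named for their low p in this same test or for their wide range of changes. The count is therefore a description and no evidence of an excess. Lower in G2, by the log2 difference, were Krt8 (-0.81), Krt20 (-3.51), Cxcl1 (-3.24), C3 (-2.48), Saa1 (-2.64), Lbp (-1.40) and Atp13a4 (-3.55). The division genes Bub1b (-1.20), Top2a (-1.27), Mki67 (-1.27), Cenpf (-1.24) and Rrm2 (-1.69) were lower in G2 as well, as were the transcription factor genes Klf6 (-1.62), Fos (-1.65), Nr4a1 (-1.28) and Cebpb (-0.88) and the transporter gene Slc5a1 (-0.84). Higher in G2 were Aqp1 (1.23), Kcnt1 (1.92), Alas2 (2.84), Slc4a1 (1.46), Cyp4a12a (3.13), Dnase1 (2.49) and Cyp2j11 (1.42). These differences rest on 2 libraries of each allele, and without G1 replicate 2 only 1 gene of the whole table was called.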

How the results depend on the processing

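No paired analysis was possible because the replicate numbers follow the order of the samples and do not pair them. On library totals alone, calls were 5082 higher and 978 lower, 4984 of them above and 944 below the wild type range in all 4 libraries. With each library left out in turn they ran from 1513 to 2992 higher (1513 to 2980 above the range) and from 1062 to 2499 lower (1061 to 2493 below it). With G1 replicate 2 and wild type replicate 1 both left out they were 373 and 182, all beyond the range. Genes higher in G2 than in G1 numbered 716 without a filter and 1132 by DESeq2, and 1 to 848 with a library left out. Genes lower in G2 numbered 1087 by DESeq2 and 618 by limma-voom, and 0 to 658 with a library left out, the 0 being edgeR without G1 replicate 2, where 2694 genes had an unadjusted p under 0.05. The cause of these shifts was not tested, though leaving libraries out also lowers the number compared. Of the 4966 members, 98.9% were called in the same direction by DESeq2, 94.2% by limma-voom, 75.7% on library totals alone (13 turned direction) and 50.4% to 92.3% with a library left out, but 554 (11.2%) with both left out. The 75.7% differed by direction: on library totals alone all 2789 higher members kept the call, but only 970 of the 2177 lower members did. Of the 182 called genes examined one by one, 93 kept the call in every alternative, 149 kept it in every one that left out at most 1 library, 88 lost it with both left out, and none turned direction. Genes with few counts are limited by depth: a fold against 1 or 2 counts has a wide interval.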
